A study of Sus scrofa with 8 samples.

Results

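Amacrine nuclei of the pig retina that carried EBF2 and EBF3 transcripts were selected from single-nucleus RNA sequencing (snRNAseq) by their measured counts of unique molecular identifiers (UMIs, each marking 1 captured RNA molecule). A nucleus was taken when it held at least 1000 UMIs, at least 3 UMIs of EBF2 and EBF3 together, at least 1 of PAX6, MEIS2 and SLC32A1, at most 1 of GAD1 and GAD2, none of SLC17A6, PDGFRB and PTPRC, and at most 1 of TRPM1, GRM6 and PDE6C. This selected 4754 of 388491 barcodes, or of the 364259 that held at least 1000 UMIs. They are called EBF nuclei below, and since these counts chose them, the levels of the selecting genes are given as a description without a test. The animals were female Yucatan minipigs 3 to 5 months old, free of antibodies neutralizing AAV2.7m8 at screening. All of them, controls included, received Vitrase, a hyaluronidase, in both eyes 2 weeks before dosing, and weekly methylprednisolone from before dosing onward. Dosed animals then received AAV2.7m8/CAG-GFP in both eyes at 5e11 vector genomes per eye, an adeno-associated virus whose CAG promoter drives green fluorescent protein in most cell types, and the others received vehicle. The 8 retinas came from 6 animals: both eyes of 1 AAV animal (7221) and 1 vehicle animal (7222) at week 2, and the left eye of 2 AAV animals (7248, 7249) and 2 vehicle animals (7250, 7251) at week 4. Week 4 animals were killed on the planned last day or earlier because of inflammation, and the labels do not say which. Each of the 4 groups carries a batch label of its own, whose step is not specified, so that batch and treatment cannot be told apart.

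Amacrine cells are the interneurons of the inner retina that shape signals passing from bipolar to ganglion cells. Most are inhibitory and release GABA or glycine, glycinergic types taking glycine back up through the transporter GlyT1, the product of SLC6A9. EBF transcription factors are helix-loop-helix proteins that act in the specification of several neuron types, and EBF members mark a group of mature amacrine cells. When a virus enters a cell, sensors of foreign nucleic acid can switch on type I interferon, which acts through a cell-surface receptor, JAK kinases and STAT and IRF factors to induce many antiviral genes.

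The retinas gave between 413 and 728 EBF nuclei each, and between 1819806 and 3691389 UMIs over those nuclei, of 121544835 to 173614051 UMIs per retina. The median EBF nucleus held 3304 UMIs in the shallowest and 5070 UMIs in the deepest retina. The last steps of the selection were short: 8346 nuclei had 3 or more EBF2 and EBF3 UMIs, 6672 also had an amacrine transcript, and the exclusions brought them to 4754. The threshold cut through a continuous range, since 1711 nuclei with 2 EBF UMIs met every other criterion and 1298 members had 3. Just outside the threshold 47.7% of nuclei held SLC6A9 and 49.9% held EBF1, at a median of 3059 UMIs, and just inside it 49.1% and 53.2%, at a median of 3352 UMIs. Among members, 502 carried a barcode sequence that also occurred in another sequencing lane.

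Levels below are CPM, the UMIs of a gene per 1000000 UMIs summed over the EBF nuclei of a retina, and they are set beside 2 other amacrine gates of the same retinas. GABAergic amacrine nuclei (17118) had at least 3 GAD1 and GAD2 UMIs, and glycinergic amacrine nuclei (5218) had at least 2 SLC6A9 UMIs, both with at most 2 EBF UMIs. EBF3, on chromosome 14 at chr14:138819846-138935504 of the Sscrofa11.1 assembly, was detected in 99.5% of EBF nuclei and ranged from 956 to 1153 CPM with a median of 1045. EBF2, also on chromosome 14 at chr14:9816992-10027574, was detected in 30.4% and ranged from 109 to 167 CPM. Only 23 members rested on EBF2 alone, so the gate was in effect an EBF3 gate. EBF1, on chr16:64357999-64753188, was not used by the rule and had 410 to 481 CPM, against a median of 42.8 CPM in GABAergic and 153 CPM in glycinergic nuclei. The 8 retinas did not overlap with either comparison gate for EBF1. EBF4 had a median of 32.9 CPM, below the medians of 40.4 and 45.8 CPM in the other gates, with ranges that overlapped.

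The marker MEIS2, a homeodomain factor, went against the label of these nuclei. Its level in EBF nuclei was 73.4 to 119 CPM, close to the glycinergic nuclei (median 77 CPM) and below every GABAergic value (median 1253 CPM). KCNIP3, a calcium-binding potassium channel partner, fitted the label, with 82.5 to 176 CPM against medians of 26 and 20.5 CPM. The general amacrine marker PAX6 was at 444 to 537 CPM and did not separate the gates. The amacrine factors TFAP2A and TFAP2B were nearly absent, with medians of 7.16 and 8.26 CPM against 174 and 297 CPM in GABAergic and 106 and 195 CPM in glycinergic nuclei. In TCF4, a factor of glycinergic amacrine cells, EBF nuclei (1430 to 1714 CPM) stood beside glycinergic (median 1412 CPM) and far above GABAergic nuclei (median 179 CPM). DAB1 and PROX1, also glycinergic markers, were likewise near the glycinergic levels, with medians of 1597 and 155 CPM in EBF nuclei against 1332 and 165 CPM in glycinergic and 556 and 45.2 CPM in GABAergic nuclei. SLC6A9 itself lay between, at 217 to 392 CPM against 22.7 to 43.5 CPM in GABAergic and 501 to 725 CPM in the glycinergic nuclei that it selected. After thinning each nucleus to 1000 UMIs it was found in 23.9% of EBF, 3.67% of GABAergic and 54.9% of glycinergic nuclei, while SLC6A5, the neuronal glycine transporter, was at 0 to 0.271 CPM. Of the markers of amacrine cells that use neither transmitter, CCK was at 0 in every retina and NEUROD6 at no more than 0.94 CPM. Of the starburst markers CHAT reached 0.73 CPM at most and SLC18A3 was at 0, while the 6 together summed to 8.31 to 35.5 CPM, most of it MEGF10.

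**Figure D1:**
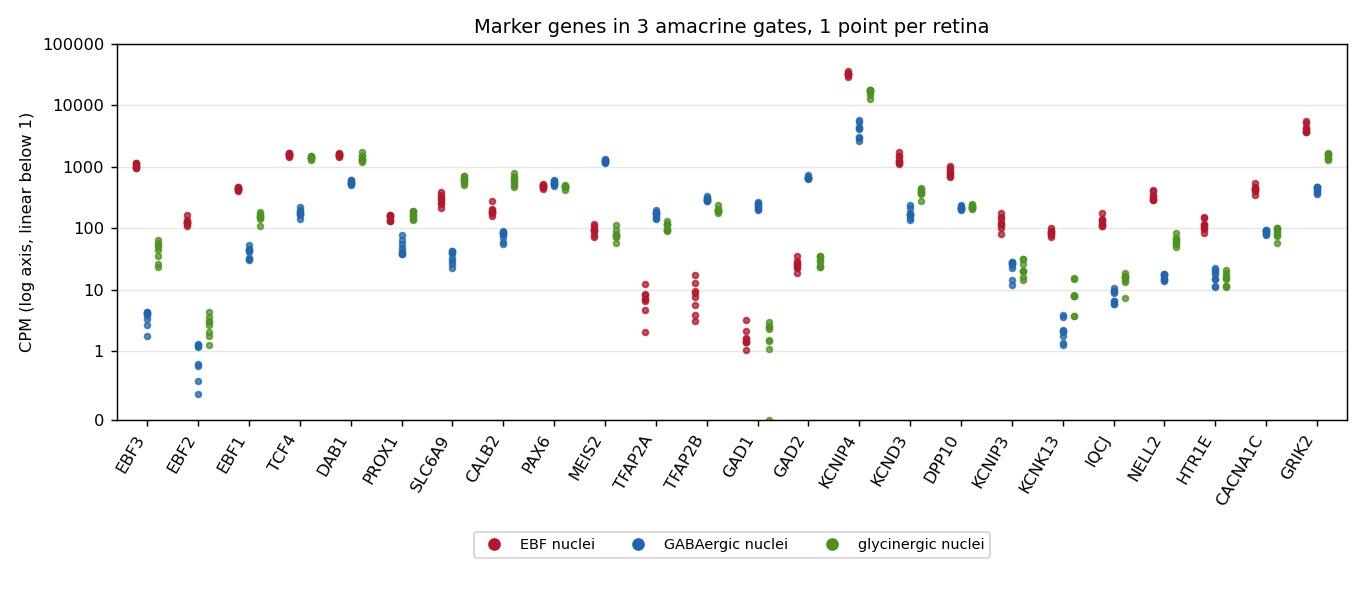
Marker genes and leading genes of the EBF nuclei in 3 amacrine gates. The vertical axis gives CPM on a log axis that is linear below 1, and each point is 1 of 8 retinas in EBF (red), GABAergic (blue) or glycinergic (green) nuclei. EBF3 and EBF2 selected the red points, MEIS2 is high in the blue points, and TFAP2A and TFAP2B are low in the red points.

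The genes that stood out most were ion channels and their partners, receptors and matrix proteins. Of 3049 genes with at least 50 CPM in every retina, 400 were higher in EBF nuclei than in both other gates in all 8 retinas, 49 of these by at least 2-fold and 7 by at least 4-fold. These comparisons describe the gate and were not tested. KCNK13, a 2-pore-domain potassium channel, had 73.7 to 103 CPM in EBF nuclei and medians of 2.08 and 7.96 CPM in GABAergic and glycinergic nuclei. HTR1E, a serotonin receptor, had 83.5 to 153 CPM against medians of 16.7 and 15.3 CPM. NELL2, a secreted ligand of ROBO3, had 287 to 415 CPM against 16.7 and 62.8 CPM. CACNA1C, the pore subunit of an L-type calcium channel, had 352 to 546 CPM against 89.2 and 86.3 CPM. COL27A1 and NID2, which encode a collagen and a basement membrane protein, had medians of 290 and 179 CPM, at least 2.77-fold and 3.11-fold above glycinergic nuclei in every retina. IQCJ ranked first, at 108 to 180 CPM against 7.85 and 16.2 CPM, and SCHIP1 was also among the leading 20. These are neighbouring genes with a known joint transcript, so that their reads may be shared.

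Genes of the A-type potassium current, picked for description, differed in both directions. The channel KCND3 had 1134 to 1721 CPM in EBF nuclei against medians of 169 and 393 CPM, and its auxiliary subunit DPP10 had 681 to 1041 CPM against 214 and 221 CPM. KCNIP4, a KChIP subunit of the same channels, had 28854 to 35860 CPM against 4225 and 17180 CPM. Their relatives went the other way relative to GABAergic nuclei: KCND2 had a median of 36.1 CPM against 136 CPM, DPP6 131 against 1374 CPM, and KCNIP1 117 against 713 CPM. GRIK2, a kainate receptor subunit, had 3749 to 5504 CPM against 440 and 1553 CPM. The genes most lower than in both gates were led by TFAP2B, GFRA2 and TFAP2A. They also included NTRK3, the neurotrophin-3 receptor, with 3.64 to 20.9 CPM against medians of 183 and 409 CPM. The muscarinic receptor CHRM2 had 12.5 to 26.5 CPM against 111 and 101 CPM.

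EBF nuclei were not uniform. In 1423 members both EBF2 and EBF3 were detected, and in 3308 EBF3 alone, at nearly equal depth (medians of 4350 and 4334.5 UMIs). The share with both was 26.8% to 34.7% over the retinas. Because only 23 nuclei had EBF2 alone, these 2 subsets replaced the planned division into EBF2-only and EBF3-only members. GABRB2, a GABA-A receptor subunit gene, separated them most. It had a median of 73.3 CPM in nuclei with EBF2 and 1068 CPM in nuclei without, at least a 12.3-fold difference in each retina. LTBP2, which encodes a matrix protein that binds fibrillin, had 26.4 and 508 CPM, and KCNQ5, a subunit of M-type potassium channels, had 30.5 and 525 CPM. HS6ST3, a heparan sulfate sulfotransferase, had 482 and 4821 CPM, and PDE3B, a phosphodiesterase, had 80.3 and 730 CPM. In the other direction GPC6, a glypican, had 2180 CPM with EBF2 and 687 CPM without, at least 2.64-fold in each retina. CNTN5, an adhesion protein, had 2765 and 1003 CPM, the AMPA receptor subunit GRIA1 1040 and 376 CPM, and the calcium-permeable channel TRPC7 226 and 90.1 CPM. SLC6A9 was found in 42.2% of nuclei with EBF2 and 63.6% without, or 12.7% and 28.8% after thinning. KCNIP3 was found in 48.1% with EBF2 and in 20.8% without. Splitting members by SLC6A9 instead separated several of the genes named above, LTBP2 at 522 CPM with and 135 CPM without SLC6A9, and GABRB2 at 1033 and 282 CPM. Undetected EBF2 in a nucleus of this depth does not show that the gene is silent, so these subsets are divisions by detection and not cell types.

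**Figure D2:**
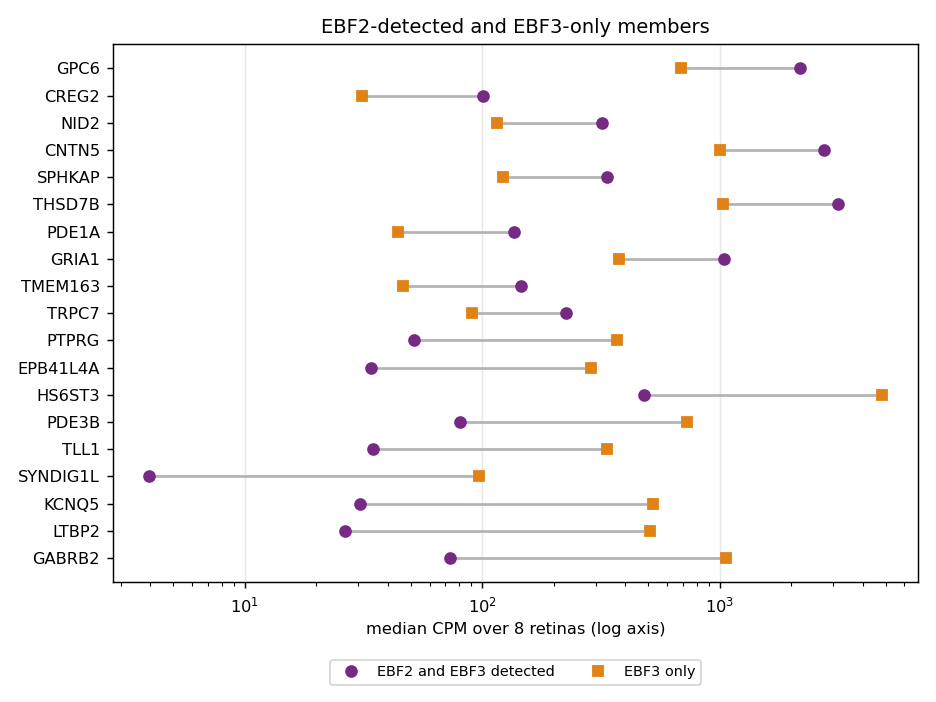
Genes that differ most between EBF nuclei with EBF2 detected and with EBF3 alone. The horizontal log axis gives the median CPM over 8 retinas, a circle for the 1423 nuclei with both genes and a square for the 3308 nuclei with EBF3 alone. The 10 upper genes are higher with EBF2 and the genes beneath them, ending with GABRB2 at 73.3 against 1068 CPM, are higher without it.

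HS6ST3 and THSD7B, which separated the subsets, were also among the most variable genes between single nuclei. After thinning to 1000 UMIs, HS6ST3 had a variance of 6.89 times its mean (median of the retinas, 5.36 to 7.31), and it was detected in 52.8% of thinned nuclei. SGCZ, which encodes a sarcoglycan, had 5.39 times its mean and was detected in 18.9% of thinned nuclei. ROBO2, an axon guidance receptor, had 5.88 and KCNIP4 5.7 times its mean, both detected in most thinned nuclei. THSD7B, one of the genes higher with EBF2, had 4.34 times its mean.

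The week 4 retinas, with 2 animals per arm, allowed a test of AAV against vehicle in EBF nuclei. Counts summed over the nuclei of a retina were compared by edgeR's quasi-likelihood test with Benjamini-Hochberg adjustment over 12591 genes. Genes with few UMIs were filtered out over both arms together. A gene near 0 UMIs with vehicle was therefore tested only where its AAV counts were high enough, and it could not be found lower. At an adjusted p under 0.05, 85 genes were higher with AAV (0.675% of genes tested) and 35 were lower (0.278%). The 85 include EGFP, the vector's own transcript, which vehicle animals did not receive. Interferon-stimulated genes made up 32 of the first set, and transcripts of the mitochondrial genome 8 of the second. All 120 genes had AAV retinas without overlap with vehicle retinas in CPM, as had 17.1% of all tested genes in the higher and 23.6% in the lower direction. The passing of the threshold depended on the vehicle retina of animal 7250. Without it nearly all calls were lost, in a fit where the lone vehicle retina is assumed to vary like the AAV retinas. Calls also became fewer without animal 7249. All 120 genes kept their direction in both fits, which the lack of overlap in CPM had nearly fixed in advance.

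Of 14 listed sensors of foreign nucleic acid 7 could be tested and 6 rose, with a median log2 fold change of 2.39 against 0.00 over all genes tested. IFIH1, the cytoplasmic sensor MDA5 of long double-stranded RNA, had 23.1 and 13 CPM in AAV retinas and 0.47 and 0.55 CPM in vehicle retinas, a log2 fold change of 5.09 ± 0.63 (approximate SE, n = 2 per arm, edgeR adjusted p = 0.00241). RIGI, a sensor of RNA with 5′ triphosphate ends, had 17.8 and 28 CPM against 3.29 and 5.5 CPM (2.39 ± 0.41, adjusted p = 0.0277). DHX58, the regulatory member of the same helicase family, had 8.39 and 17.1 CPM against 0.47 and 0 CPM (5.33 ± 0.92, adjusted p = 0.0148). ZBP1, a sensor of left-handed nucleic acid, had 16.1 and 27 CPM against 0.47 and 0.55 CPM (5.25 ± 0.63, adjusted p = 0.00173). EIF2AK2, the kinase PKR that halts translation on double-stranded RNA, had 205 and 279 CPM against 60.6 and 55 CPM (2.10 ± 0.18, adjusted p = 0.000486). OAS2, which makes the messenger that activates RNase L, had 44.4 and 56.6 CPM against 15 and 18.7 CPM (1.61 ± 0.23, adjusted p = 0.0112). In each of these 6 genes both AAV retinas exceeded both vehicle retinas, as in every gene called higher and in 17.1% of all genes tested. The vehicle retinas together held 2 UMIs of IFIH1, 1 of DHX58 and 2 of ZBP1, so that the ratios of summed CPM were 37.5 (95% counting interval 10.1 to 315), 47 (8.11 to 1889) and 40.4 (10.9 to 338). IFIH1, DHX58 and ZBP1 could be tested only through their AAV counts, so the count of sensors that rose is partly set by the filter.

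Of 20 tested genes of the interferon receptor and signalling list 8 rose in edgeR, with a median log2 fold change of 0.55, and DESeq2 called 5. The receptor subunits IFNAR1 and IFNAR2 had log2 fold changes of 0.61 ± 0.21 (adjusted p = 0.366) and 0.48 ± 0.21 (adjusted p = 0.494), and the kinases JAK1 and TYK2 had -0.04 ± 0.15 (adjusted p = 0.964) and -0.28 ± 0.18 (adjusted p = 0.653). STAT2 and IRF9, members of the complex ISGF3, rose by log2 fold changes of 1.62 ± 0.17 and 4.16 ± 0.44. IRF9 had 32.9 and 40 CPM against 3.29 and 0.55 CPM. STAT3 had 102 and 83.6 CPM against 50.8 and 50 CPM (0.93 ± 0.16, adjusted p = 0.0277). IRF7, the amplifier of interferon production, and IRF2 also rose. USP18, which restrains the receptor and removes ISG15 from proteins, had 32.5 and 39 CPM against 0 and 1.1 CPM (6.01 ± 0.58, adjusted p = 0.000486), a ratio of 69.3 with a counting interval of 18.9 to 577 on 2 vehicle UMIs.

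Of the 65 listed interferon-stimulated genes 59 were in the files and 44 could be tested, of which 32 rose and none fell. Their median log2 fold change was 2.88, against 0.00 over all genes tested, and the 32 genes ranged from 1.11 to 8.72 with adjusted p from 0.000103 to 0.0461. Among the 44, 38 had an unadjusted p under 0.05 in the higher direction and 0 in the lower, and DESeq2 called 28 higher. Listed genes near 0 UMIs with vehicle, such as MX2, passed the low-count filter only through AAV counts and could not fall. The counts and the median of the list are therefore partly set by the filter. The list was chosen with earlier results of these libraries known, so its direction is not independent evidence. Without vehicle animal 7250 only 1 of them passed, at a median log2 fold change of 3.24 over the list. IFI44L, a negative regulator of the interferon response, had 85.7 and 174 CPM with AAV and 0 and 0.55 CPM with vehicle (8.72 ± 0.72, adjusted p = 0.000103). IFI6, an antiviral protein of the endoplasmic reticulum, had 67.8 and 131 CPM against 0.47 and 0 CPM (8.33 ± 0.69, adjusted p = 0.000103). PARP12, an antiviral ADP-ribosyltransferase, had 62.9 and 77.9 CPM against 1.88 and 1.65 CPM (5.30 ± 0.33, adjusted p = 0.000103). MX1, a dynamin-like GTPase that blocks viral nucleocapsids, had 75.2 and 102 CPM against 7.99 and 14.3 CPM (3.04 ± 0.28, adjusted p = 0.000648). MX2, its nuclear relative, had 19.9 and 20.3 CPM and no UMI in either vehicle retina, at least 26.4-fold higher when the vehicle retinas together are set at 3 UMIs. ISG15, a ubiquitin-like modifier, had 13.6 and 19.7 CPM against 0 and 0.55 CPM (5.75 ± 0.78, adjusted p = 0.00274), and HERC5, the ligase that attaches it, had 26.6 and 23.4 CPM against 0 and 0.55 CPM (6.38 ± 0.65, adjusted p = 0.000486). IFI44 and DDX60 rose by log2 fold changes of 6.81 ± 0.69 and 6.32 ± 0.66. In IFI44L, IFI6, ISG15, HERC5, IFI44 and DDX60 the vehicle retinas together held 1 UMI, and counting intervals of the ratio started at 85.5, 65.7, 11.06, 17.6, 23.2 and 16.7. The antiviral zinc finger protein gene ZC3HAV1, outside the list, was at 0 UMIs in both vehicle retinas and at least 18.4-fold higher with AAV.

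Not all classical responders passed. IFIT1, which binds RNA lacking a host cap, had 9.09 and 21.3 CPM against 4.23 and 4.95 CPM (1.68 ± 0.51, adjusted p = 0.288). Its relative IFIT2 had 6.29 and 6.75 CPM against 3.29 and 6.59 CPM, which overlapped (0.46 ± 0.45, adjusted p = 0.795). ADAR, an RNA editing enzyme, had 64.7 and 81.5 CPM against 33.8 and 43.4 CPM (0.96 ± 0.20, adjusted p = 0.0651). The chemokine CXCL10 had 3.15 and 3.64 CPM with AAV and none with vehicle, and was too low to be tested.

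**Figure D3:**
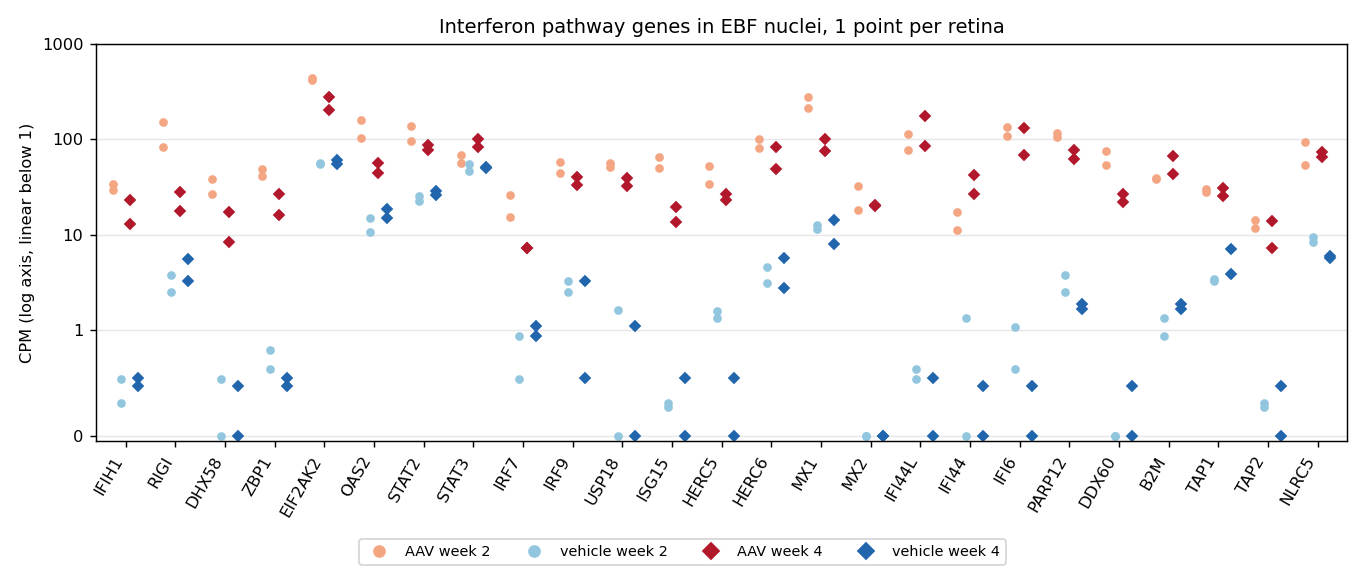
Sensors, signalling factors, effectors and antigen presentation genes of the interferon pathway in EBF nuclei. The vertical axis gives CPM on a log axis that is linear below 1, and each point is 1 retina, circles for week 2 and diamonds for week 4, orange and red for AAV and blue for vehicle. The red diamonds lie above the dark blue diamonds in each gene, for example 85.7 and 174 against 0 and 0.55 CPM in IFI44L.

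Genes that present antigen on MHC class I rose in 5 of 11 tested members, with a median log2 fold change of 1.67. B2M, the shared light chain, had 43.7 and 67.5 CPM with AAV against 1.88 and 1.65 CPM with vehicle (4.94 ± 0.42, adjusted p = 0.000486). NLRC5, the activator of class I genes, had 73.8 and 66 CPM against 5.64 and 6.04 CPM (3.62 ± 0.24, adjusted p = 0.000103). TAP1 and TAP2, the peptide transporter, rose by 2.35 ± 0.34 and 5.21 ± 0.88 on the log2 scale, with 1 vehicle UMI of TAP2, and PSME1, a proteasome activator subunit, by 1.83 ± 0.26.

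The promoters of these genes can be read in the reference genome. Of these, 5 are printed because they hold the motif that interferon-activated factors read, written here as GAAA, any 2 bases and GAAA again, searched on both strands with overlaps allowed and shown in capitals. Each runs 5′ to 3′ along the gene's strand from 250 bases before the start of the gene to 50 bases after it, by RefSeq's annotation of Sscrofa11.1. ISG15 lies at chr6:63362951-63363250 on the plus strand. IFIH1 lies at chr15:68985096-68985395, IFI6 at chr6:84858023-84858322, HERC5 at chr8:130591109-130591408 and OAS2 at chr14:38847648-38847947, all on the minus strand.
ISG15: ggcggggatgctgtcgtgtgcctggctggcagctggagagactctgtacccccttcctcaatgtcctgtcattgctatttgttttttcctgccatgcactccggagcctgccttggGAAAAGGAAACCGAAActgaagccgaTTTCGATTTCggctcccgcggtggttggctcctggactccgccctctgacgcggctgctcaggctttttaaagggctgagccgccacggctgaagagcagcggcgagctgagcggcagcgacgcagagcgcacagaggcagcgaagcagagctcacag
IFIH1: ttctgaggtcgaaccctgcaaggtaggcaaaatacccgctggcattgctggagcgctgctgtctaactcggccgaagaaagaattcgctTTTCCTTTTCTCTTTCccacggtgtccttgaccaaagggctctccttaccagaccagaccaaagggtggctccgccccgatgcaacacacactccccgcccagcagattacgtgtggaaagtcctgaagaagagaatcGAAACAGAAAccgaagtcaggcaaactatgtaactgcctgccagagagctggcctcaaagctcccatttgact
IFI6: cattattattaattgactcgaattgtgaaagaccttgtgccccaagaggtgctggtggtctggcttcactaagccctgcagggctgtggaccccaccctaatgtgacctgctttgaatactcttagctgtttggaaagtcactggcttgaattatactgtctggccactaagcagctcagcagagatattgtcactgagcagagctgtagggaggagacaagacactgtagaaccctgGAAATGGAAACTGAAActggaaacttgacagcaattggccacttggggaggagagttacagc
HERC5: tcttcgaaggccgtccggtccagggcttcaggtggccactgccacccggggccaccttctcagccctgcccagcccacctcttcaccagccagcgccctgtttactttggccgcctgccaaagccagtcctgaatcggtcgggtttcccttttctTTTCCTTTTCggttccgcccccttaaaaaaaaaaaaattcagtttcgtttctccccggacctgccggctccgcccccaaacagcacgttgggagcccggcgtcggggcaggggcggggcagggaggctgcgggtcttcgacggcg
OAS2: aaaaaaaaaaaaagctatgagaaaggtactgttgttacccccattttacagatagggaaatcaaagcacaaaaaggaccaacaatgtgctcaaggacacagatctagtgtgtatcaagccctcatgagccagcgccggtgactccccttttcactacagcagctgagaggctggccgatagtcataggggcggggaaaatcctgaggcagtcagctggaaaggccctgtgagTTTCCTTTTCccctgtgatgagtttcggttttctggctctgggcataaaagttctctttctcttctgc
Relative to the start of the gene, the first base of the motif lay at -134, -128 and -108 in ISG15, at -161, -155 and -23 in IFIH1, at -12 and -6 in IFI6, at -95 in HERC5 and at -18 in OAS2. It was found in 17 of the 60 promoters of genes called higher at week 4 (28.3%), in 0 of the 23 of genes called lower, in 13 of 31 of the interferon-stimulated genes called (41.9%) and in 4 of 11 of those tested and not called (36.4%). Of all 19531 protein-coding promoters 3.57% held it, and of the 9224 of tested genes 2.82%. A match is a description of these letters and not a site. The windows of IFI44, MX1, MX2 and PARP12, genes with large changes, did not hold them.

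Outside the list of interferon-stimulated genes, several genes known from immune cells were higher. IGHM, the heavy chain of IgM, had 13.6 and 32.7 CPM with AAV and no UMI in the other 6 retinas, at least 28-fold higher than vehicle at week 4. HLA-DRA and CD74, of MHC class II, had 7.34 and 5.71 against 0 and 0 CPM and 17.8 and 11.4 against 0.94 and 2.75 CPM. BANK1, a B cell scaffold protein gene, had 14.7 and 12.5 CPM against 2.82 and 0.55 CPM (2.96 ± 0.51, adjusted p = 0.0285). RUNX1, a blood cell transcription factor, rose by 3.08 ± 0.57 on the log2 scale and A2M, a protease inhibitor, by 3.79 ± 0.54. In GABAergic nuclei of the same retinas IGHM was at 9.04 and 13.3 CPM with AAV and 0 with vehicle, and in glycinergic nuclei at 18.8 and 20.9 CPM and 0. The summed microglia and macrophage markers (10 genes, PTPRC at 0 by the rule) were 24.4 and 32.2 CPM with AAV and 13.2 and 19.7 CPM with vehicle. Of the 8 B and plasma cell markers 2 were called higher and CD79B was at 0, and the list summed to 513 and 565 CPM against 444 and 502 CPM, most of it EBF1. Leaving EBF1 aside, 1231 members held a UMI of a microglia, T, NK or B cell marker. Without those nuclei 88 genes were called, 58 higher and 30 lower, and 76 of the 120 genes stayed called. Of the interferon-stimulated genes 24 were called, while MX2 and HLA-DRA were too low to be tested. IGHM and BANK1 are themselves among the markers, so that this setting removes them by construction. The part of immune cell RNA in these genes was not tested.

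FOXS1, a forkhead factor, had 14.3 and 26.5 CPM with AAV and no UMI in vehicle retinas at week 4, at least 25.3-fold higher. ZNF804A, a zinc finger protein gene, had 6531 and 7014 CPM against 4213 and 4089 CPM (0.75 ± 0.10, adjusted p = 0.00688). GRIK2, one of the genes that set EBF nuclei apart, had 5504 and 5178 CPM against 3886 and 3749 CPM (0.53 ± 0.09, adjusted p = 0.0357). It was the 1 glutamate receptor gene of 22 tested that passed. CFLAR, an inhibitor of caspase-8, was the 1 of 18 apoptosis and necroptosis genes (1.55 ± 0.30, edgeR adjusted p = 0.0468), and DESeq2 called 0 of them.

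Among the 35 genes that fell, 8 were encoded by the mitochondrial genome, of 11 such genes tested, with a median log2 fold change of -1.30 over the 11. CYTB, of respiratory complex III, had 52.1 and 46.7 CPM with AAV and 184 and 150 CPM with vehicle, a log2 fold change of -1.71 ± 0.15 (adjusted p = 0.000648). COX1, COX2 and COX3, of complex IV, had -1.41 ± 0.15, -1.20 ± 0.11 and -1.47 ± 0.15, and ATP6, of the ATP synthase, had -1.48 ± 0.23. ND2, ND4 and ND5, of complex I, also fell. Summed over 13 genes they were 594 and 507 CPM with AAV and 1569 and 1322 CPM with vehicle at week 4, but 1482 and 2234 CPM with AAV and 701 and 1651 CPM with vehicle at week 2. The share of mitochondrial UMIs in the median nucleus was 0.0239% and 0.0214% against 0.0501% and 0.0509% at week 4. Without members above 0.5% mitochondrial UMIs ATP6 no longer passed (-0.90, adjusted p = 0.117), CYTB was at -1.19 and COX3 at -0.98. In that setting 121 genes were called, among them 110 of the 120. The part of the mitochondrial share in the other genes that fell was not tested.

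Named singly, 4 genes of cholesterol handling that fell were picked after their values were seen. SREBF2, a factor that drives cholesterol synthesis when sterol is low, had 54.9 and 52.5 CPM against 129 and 145 CPM (-1.30 ± 0.14, adjusted p = 0.00173). SQLE and LSS, enzymes of the synthesis, had -1.31 ± 0.18 (adjusted p = 0.0104) and -0.71 ± 0.13 (adjusted p = 0.0339). SCARB1, a receptor for high-density lipoprotein, had 255 and 205 CPM against 409 and 406 CPM (-0.78 ± 0.13, adjusted p = 0.02). ABCA1, which exports cholesterol from cells, was higher, with 25.9 and 29.1 CPM against 2.82 and 4.95 CPM (2.86 ± 0.35, adjusted p = 0.00378). At week 2 the AAV and vehicle eyes had 131 and 153 against 132 and 141 CPM of SREBF2. No list of sterol genes was tested, so these are single genes and not a group result.

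Several others that fell are known from other retinal cell types. RBPMS, the marker of retinal ganglion cells, had 2.1 and 3.64 CPM with AAV and 40.9 and 16.5 CPM with vehicle (-3.36 ± 0.55, adjusted p = 0.0226). Without members above 3 times the median UMIs of their retina, of which the vehicle retinas held 6 and 2 and the AAV retinas 1 and 0, RBPMS no longer passed (-1.52, adjusted p = 0.286). The summed ganglion cell markers, with SLC17A6 and POU4F3 at 0, were 17.8 and 17.1 CPM against 66.8 and 38.5 CPM, a sum that includes RBPMS itself. RGR, an opsin of glia and pigment epithelium, had 2.1 and 2.08 CPM against 16 and 13.7 CPM (-2.76 ± 0.41, adjusted p = 0.0133). TF, transferrin, fell by 3.27 on the log2 scale in edgeR and did not pass in DESeq2 (adjusted p = 0.474). PTGDS, prostaglandin D synthase, fell by 1.71. The Müller glia markers together were at 122 and 100 CPM against 166 and 160 CPM, and the rod markers at 1310 and 1243 CPM against 1676 and 1390 CPM. PVALB, parvalbumin, had 1.05 and 0.519 CPM against 6.11 and 8.24 CPM (-2.97 ± 0.59, adjusted p = 0.0483), and it did not pass in DESeq2 (adjusted p = 0.455) or with any 1 of the 4 animals left out (edgeR adjusted p from 0.145 to 0.546). SFRP2, a secreted WNT antagonist, had 36.7 and 23.4 CPM against 100 and 91.2 CPM (-1.60 ± 0.20, adjusted p = 0.00549), and SCG2, a secretory granule protein gene, had 10.8 and 7.27 CPM against 25.4 and 28.6 CPM (-1.48 ± 0.28, adjusted p = 0.045), which did not pass in DESeq2 (adjusted p = 0.161). The glycolytic genes GAPDH and GPI, picked after their values were seen, had -0.88 ± 0.16 and -0.77 ± 0.13. The part of RNA from other cells in these differences was not tested.

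**Figure D4:**
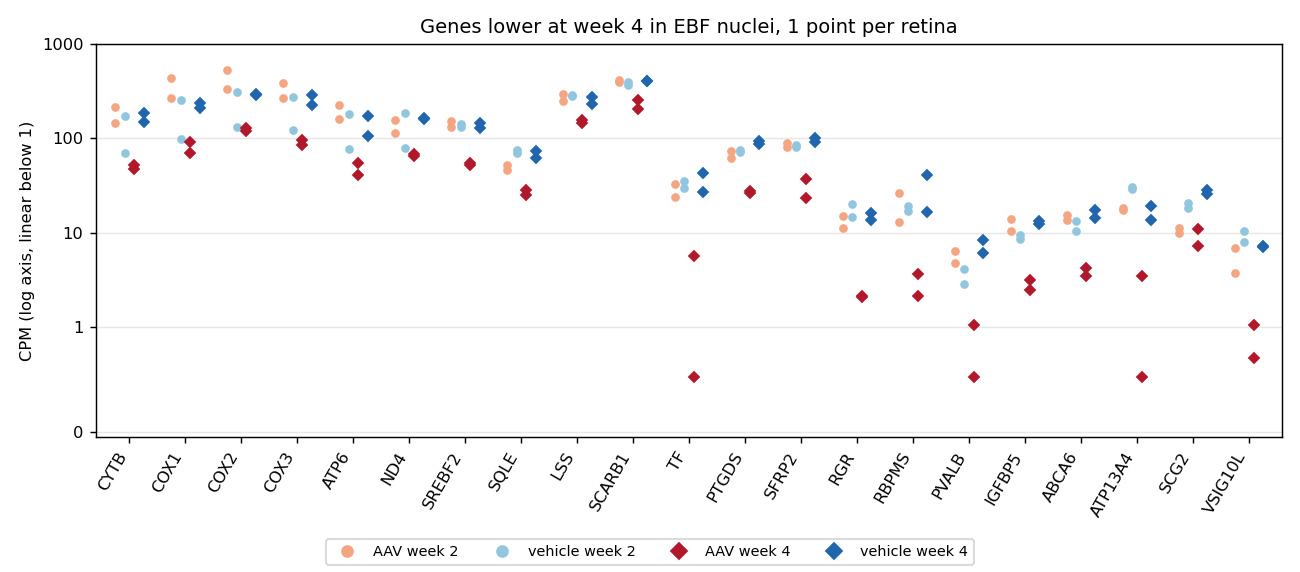
Genes lower with AAV at week 4 in EBF nuclei. The vertical axis gives CPM on a log axis that is linear below 1, and each point is 1 retina, circles for week 2 and diamonds for week 4, orange and red for AAV and blue for vehicle. The red diamonds lie below the dark blue ones in all genes shown, while the week 2 circles of the 2 arms lie nearer to each other, as in SREBF2 at 131 and 153 against 132 and 141 CPM.

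Lists of genes that define the neurons were counted beside all 12591 genes tested, of which 0.675% were called higher and 0.278% lower. At these shares a short list can hold no call without that being a result about it. In edgeR's test no gene passed among 23 EBF family and amacrine transcription factors and 19 genes of inhibitory transmitter release, both counted without the genes that chose the nuclei, 18 GABA and glycine receptors, 46 guidance and adhesion genes or 19 genes of AAV entry and trafficking. An unadjusted p under 0.05 in edgeR was held by 1243 of all 12591 genes tested. At that threshold the transcription factors gave 1 higher and 2 lower, the release genes 1 higher and 1 lower, and the receptors 1 and 1. The guidance genes gave 6 and 5, and the entry genes 3 and 0. DESeq2 called none of the genes in these lists. Of 30 potassium channel genes none passed in edgeR, 4 higher and 6 lower had an unadjusted p under 0.05, and DESeq2 called KCND2 alone (21.3 and 8.83 CPM with AAV against 57.8 and 39.6 CPM, edgeR adjusted p = 0.074). Among the lists without a call in edgeR, the potassium channel and guidance lists lay furthest above the share over all genes at that threshold. Whether they differ from it was not tested. Nor did a gene pass among 11 p53 targets (1 higher and 1 lower unadjusted), 11 TNF and NF-kB genes (1 and 0), 16 neuronal injury genes (1 and 0) or 4 complement genes (0 and 0), with none called by DESeq2. The p53 target CDKN1A had 1.05 and 1.04 CPM with AAV and 0 with vehicle, too low to be tested. Of 15 tested IL-6, JAK and STAT3 genes 5 rose, STAT3, IRF9, STAT2 and A2M among them, with a median of 0.53. Of the neuropeptide list 2 genes could be tested and PVALB fell. Medians of the lists without a call ran from -0.07 for the potassium channels to 0.39 for the TNF genes.

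At week 2 each arm was 1 animal with both eyes, so values are given without a test. A gene was counted where the mean CPM differed at least 2-fold and both AAV eyes lay beyond both vehicle eyes. By this count 379 of 14164 genes were higher with AAV (2.68%) and 134 lower (0.946%). Interferon-stimulated genes were higher in 47 of 50 measured and lower in none, with a median log2 ratio of 4.45 against 0.10 over all genes. The low-count filter again ran over both arms, so listed genes near 0 UMIs with vehicle were measured only through their AAV counts. ISG15 had 50 and 66 CPM in the AAV eyes and 0.315 and 0.271 CPM in the vehicle eyes. RIGI had 84 and 152 CPM against 2.52 and 3.79 CPM, and MX1 213 and 280 CPM against 11.4 and 12.5 CPM. IFI44L had 114 and 77.2 CPM against 0.631 and 0.542 CPM. All 32 interferon-stimulated genes called at week 4 were also higher at week 2, as were 60 of the 74 called higher and measured at both weeks. Of the 35 genes called lower at week 4 all were measured at week 2, and 0 were at least 2-fold lower there, beside 0.946% of all genes. The week 4 calls had no fold threshold and included log2 fold changes as small as -0.71. Falls of that size were not counted at week 2, so this count does not show that they were absent. IGHM was at 0 in all 4 week 2 retinas, and CD74 was at 1.83 and 2.58 CPM against 2.84 and 2.17 CPM.

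The difference between the weeks was tested over the 6 animals as an interaction of treatment and week, with the spread coming from week 4. Each arm of week 2 was 1 animal, so that in these differences animal and treatment cannot be told apart. Of 14654 genes the AAV effect was higher at week 4 in 4 (0.0273%) and lower in 7 (0.0478%). Of the 51 interferon-stimulated genes tested, 0 were among them in edgeR: the log2 difference was -2.75 ± 0.61 for RIGI (edgeR adjusted p = 0.229), -1.56 ± 2.06 for ISG15 (adjusted p = 0.885) and 1.68 ± 2.22 for IFI44L (adjusted p = 0.873). The mitochondrial genes COX1, COX2, COX3 and CYTB, whose summed list already varied between the eyes of the week 2 vehicle animal, differed by -2.30 ± 0.24, -2.08 ± 0.20, -2.10 ± 0.25 and -2.17 ± 0.25, with adjusted p from 0.00291 to 0.00656. HTR1F, a serotonin receptor, differed by 6.34 ± 0.64 (adjusted p = 0.00291), since it had 0 and 0.861 CPM in the eyes of AAV animal 7221 and 12.6 to 28.6 CPM in the other 6 retinas. SEMA5B, a semaphorin, differed by 2.43 ± 0.24 (adjusted p = 0.00291), with 19 and 14.3 CPM in the same eyes and 91 to 151 CPM elsewhere. The count moved to 72 without animal 7248, 55 without 7249 and 18 without 7251.

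How the interferon genes responded in EBF nuclei was set beside the other amacrine gates of the same retinas. The 59 listed genes summed to 1800 and 2376 CPM in EBF nuclei of AAV retinas at week 4, to 2975 and 4163 CPM in GABAergic nuclei and to 3566 and 3978 CPM in glycinergic nuclei. In vehicle retinas the sums were 488 and 439 CPM in EBF nuclei, 433 and 417 CPM in GABAergic and 443 and 467 CPM in glycinergic nuclei. EBF nuclei thus held 0.605 and 0.571 of the GABAergic sum with AAV at week 4 and 1.13 and 1.05 of it with vehicle. At week 2 the same ratio was 0.89 and 0.821 with AAV and 1.06 and 1 with vehicle. The subsets of EBF nuclei gave sums of 1901 and 2314 CPM with EBF2 and 1744 and 2288 CPM without at week 4. Over the 44 genes tested in each gate the median log2 fold change was 2.88 in EBF, 3.81 in GABAergic and 3.79 in glycinergic nuclei. These summaries were not tested.

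**Figure D5:**
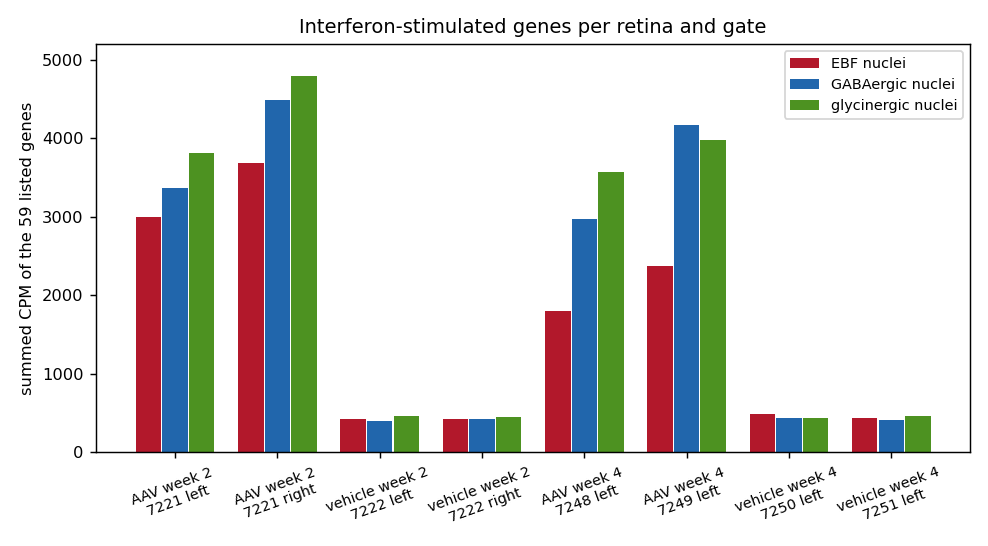
Summed CPM of the 59 interferon-stimulated genes per retina in EBF (red), GABAergic (blue) and glycinergic (green) amacrine nuclei, with 1 bar per gate and retina and no error bars. At week 4 the EBF bars of the AAV retinas stand at 1800 and 2376 CPM, below both other gates, and the vehicle bars of all gates lie between 398 and 488 CPM.

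The difference of the AAV effect itself was tested gene by gene with a term for each retina. Against GABAergic nuclei it was higher in EBF nuclei for 3 of 18092 genes (0.0166%) and lower for 10 (0.0553%). NLRC5 differed by -2.49 ± 0.37 (edgeR adjusted p = 0.0476): it rose from 5.64 and 6.04 to 73.8 and 66 CPM in EBF nuclei and from 1.6 and 1.06 to 92.8 and 95.1 CPM in GABAergic nuclei. OAS2 differed by -1.61 ± 0.22 (adjusted p = 0.0339), with 44.4 and 56.6 CPM in EBF nuclei of AAV retinas and 110 and 146 CPM in GABAergic nuclei. KCND2 differed by -1.99 ± 0.26 (adjusted p = 0.0339), and PDE4B, a phosphodiesterase, by -1.11 ± 0.14 (adjusted p = 0.031). PDE4B had 57.7 and 56.1 CPM against 107 and 101 CPM in EBF nuclei, and 655 and 758 CPM against 545 and 590 CPM in GABAergic nuclei. SLC16A12, a monocarboxylate transporter, differed by -2.11 ± 0.21 (adjusted p = 0.00672) and COLEC12, a scavenger receptor, by 1.31 ± 0.16 (adjusted p = 0.031). SLC16A12 had 41.6 and 68 against 57.8 and 58.8 CPM in EBF nuclei, which overlapped, and 11 and 18 against 3.19 and 3.62 CPM in GABAergic nuclei. COLEC12 had 98.6 and 83.1 against 129 and 104 CPM in EBF nuclei and 16.2 and 13.6 against 45.9 and 45.4 CPM in GABAergic nuclei. CAMK4, a calcium-dependent kinase, differed by 1.00 ± 0.14 (adjusted p = 0.0382). None of the 7 genes named passed without the retina term (adjusted p from 0.077 to 1) or after thinning (0.14 to 0.691), with the direction kept. Without animal 7249, 7250 or 7251 no difference passed in edgeR, with 1006, 911 and 994 genes at an unadjusted p under 0.05.

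Against glycinergic nuclei the effect was higher in EBF nuclei for 10 of 14067 genes (0.0711%) and lower for 50 (0.355%). OAS2 was again among them, at -1.86 ± 0.29 (adjusted p = 0.00827). RBPMS differed by -5.45 ± 0.48 (adjusted p = 4.36e-05), with 2.1 and 3.64 against 40.9 and 16.5 CPM in EBF nuclei, a fall that did not pass without high-UMI members, and 49.3 and 32.3 against 10.1 and 9.06 CPM in glycinergic nuclei. GLIS3, a zinc finger factor, differed by -3.21 ± 0.28 (adjusted p = 4.36e-05), with 26.9 and 21.8 against 16 and 22.5 CPM in EBF nuclei and 389 and 393 against 19.7 and 46.4 CPM in glycinergic nuclei. PTGDS, SFRP2 and PDE4B differed by -1.74 ± 0.21, -1.54 ± 0.19 and -1.25 ± 0.20. LTBP2, higher in EBF nuclei without detected EBF2, differed by 1.08 ± 0.14 (adjusted p = 0.00181), with 445 and 327 against 283 and 386 CPM in EBF nuclei. Glial genes moved with treatment in the glycinergic gate, SLC1A3 from 72.6 and 93.9 to 190 and 186 CPM and GFAP from 31 and 52.2 to 129 and 72.3 CPM, whereas in EBF nuclei they were at 21 and 7.79 against 13.2 and 20.9 CPM and at 5.94 and 3.64 against 2.82 and 6.04 CPM. Their part in the differences was not tested. The count was 142 without animal 7248, 221 without 7249, 21 without 7250 and 119 without 7251.

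The vector's own transcript was found in few EBF nuclei. At least 1 EGFP UMI was present in 44 of 638 nuclei (6.9%, exact 95% interval 5.06 to 9.15) and 84 of 669 nuclei (12.6%, 10.1 to 15.3) in the week 2 AAV eyes. At week 4 it was present in 30 of 626 (4.79%, 3.26 to 6.77) and 17 of 413 nuclei (4.12%, 2.42 to 6.51). No EGFP UMI was found in any vehicle retina, which allows a share of up to 0.412% to 0.612% when the limit is set at 3 nuclei. Intervals and limits cover counting error only. The shares in GABAergic nuclei were 10.7%, 24.8%, 9.59% and 13.2%, at medians of 6569 to 7935 UMIs, and those in glycinergic nuclei 10.7%, 21.4%, 7.79% and 6.98%. After thinning to 1000 UMIs they were 1.88%, 2.54%, 1.28% and 0.242% in EBF nuclei, 1.8%, 4.18%, 1.58% and 2.45% in GABAergic nuclei and 2.11%, 4.48%, 2.6% and 1.99% in glycinergic nuclei. Nuclei with at least 2 PTPRC UMIs and no PAX6, an immune population, held EGFP in 4.46% and 3.96% at week 4, at medians of 2741 and 3014 UMIs. At week 2 only 29 and 30 such nuclei were found in the AAV eyes, with EGFP in 3.45% (0.0873 to 17.8) and 20% (7.71 to 38.6). The EBF shares of 6.9% and 12.6% in these eyes lay within those wide intervals. The EBF shares at week 4 lay within the intervals of these immune nuclei (3.14 to 6.12 and 2.65 to 5.67), although the EBF nuclei were deeper, with medians of 4334 and 4500 UMIs. After thinning the immune nuclei of week 4 held EGFP in 0.991% and 1.27%, and their summed level was 18.5 and 13.9 CPM. The authors detected GFP transcripts in every cell population that they identified, so these nuclei are not a negative control. The part of EGFP from other cells was not tested in either population. The summed EGFP level was 17.9 and 29.6 CPM at week 2 and 11.2 and 10.4 CPM at week 4, at least 14.3-fold above vehicle at week 4.

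EBF nuclei were 1.26% and 0.85% of barcodes with at least 1000 UMIs in the AAV retinas and 1.16% and 1.16% in the vehicle retinas at week 4. The difference of the means was -0.105 percentage points (exact two-sided permutation p = 1, where 0.333 is the smallest that 2 against 2 retinas allow). At week 2 they were 1.69% and 1.6% in the AAV eyes and 1.3% and 1.52% in the vehicle eyes. The sign turned to 0.0992 without AAV animal 7249. Of the 3 amacrine gates together, EBF nuclei made up 20.9% and 20% with AAV and 19.3% and 15.1% with vehicle at week 4.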

How the data were processed

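Nuclei isolated from flash-frozen pig retinas were sorted by DAPI and profiled by 10x 3′ snRNAseq in 4 lanes per retina. The authors aligned reads to Sscrofa11.1 with Cell Ranger 8.0.0 and deposited filtered matrices of raw UMI counts per gene and nucleus, in which the smallest barcode held 500 UMIs. Whether doublets or free RNA were removed before deposit is not given in the sources used here, and no caller was run. Of 35683 genes 18049 had no symbol, and 77 of these were named from a reference table.

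EBF nuclei were selected by the counts stated in the results. The members and gene lists were chosen with earlier results of these data known. Counts were summed per retina (per animal at week 2 for the interaction of weeks, whose spread came from week 4 alone) and tested by edgeR 4.0.16 (quasi-likelihood, TMM scaling, filterByExpr, Benjamini-Hochberg) in R 4.3.3, with DESeq2 1.42.0 as an alternative. Interactions of treatment and gate carried a term for each retina. In simulated counts of 12120 genes for week 4 the test recovered 97.9% of 4-fold and 51.5% of 2-fold changes, with 1.38% false calls. For the weeks (14282 genes) it recovered 67% and 15.6% (4.65% false calls), against GABAergic nuclei (17801 genes) 62.6% and 34% (3.03%), and against glycinergic nuclei (13839 genes) 75% and 39.4% (8.06%). The simulated spread followed the fitted trend over genes and held no excess spread of single genes or animals, so these rates do not cover that source of error. Thinning drew 1000 UMIs per nucleus (seed 1). Levels are CPM and are not per length, so genes are not compared with each other. The GLUL criterion of the glycinergic gate was not applied, since the files list no gene by that symbol.

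Genes were named from the lists, from the 15 largest called changes with a symbol in each direction at week 4, from the 5 largest in each direction of each interaction, and from the 20 most higher and 10 most lower genes against both gates. ABCA1, SREBF2, SQLE, LSS, SCARB1, GAPDH, GPI, RUNX1 and CD74 were picked after their values were seen, and the variable genes by rank. Fold changes of genes with no vehicle UMI are lower bounds against 3 UMIs over both vehicle retinas. Promoters were read from the Sscrofa11.1 genome at RefSeq gene starts. Alternatives covered the EBF, UMI, GAD and mitochondrial thresholds, thinning, scaling, filter, tool and each animal left out. Results for a few withheld genes are not reported here, and these are left out of the plots.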

Additional observations from a re-analysis of the deposited data

Results flagged for a closer look

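The AAV effect differed between the weeks, by the interaction test over 6 animals, in 9 named genes. Each week 2 arm was 1 animal, so animal and treatment cannot be told apart there. It was higher at week 4 for HTR1F by 6.34, SEMA5B by 2.43, TOPAZ1 by 1.78 and ZNF804A by 1.02 on the log2 scale. ZNF804A did not pass without vehicle animal 7250 (adjusted p = 0.156) or 7251 (0.288) in edgeR. TOPAZ1 and MORC1 did not pass without 7251 (0.0784 and 0.0541) or with left eyes alone at week 2 (0.0515 and 0.12). TOPAZ1 had 98.2 and 87.2 CPM in the week 2 AAV eyes against 191 and 200 CPM in the vehicle eyes, and 127 and 161 against 105 and 88.5 CPM at week 4. The difference was negative for MORC1 (-4.90), COX1 (-2.30), CYTB (-2.17), COX3 (-2.10) and COX2 (-2.08). MORC1, a gene known from germ cells, had 20.4 and 29 CPM in the week 2 AAV eyes, 2.52 and 1.08 CPM in the vehicle eyes, and at week 4 11.9 and 3.12 against 19.3 and 18.7 CPM.

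The AAV effect at week 4 differed between EBF and GABAergic nuclei in the interaction test for COLEC12 (1.31), CAMK4 (1.00), NLRC5 (-2.49), SLC16A12 (-2.11), KCND2 (-1.99), OAS2 (-1.61) and PDE4B (-1.11). None of these passed without the retina term or after thinning. CAMK4 had 108 and 71.2 CPM with AAV and 61.6 and 83.5 CPM with vehicle in EBF nuclei, which overlapped, and 290 and 174 against 317 and 402 CPM in GABAergic nuclei.

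Between EBF and glycinergic nuclei it differed for VWC2 (1.34), PLEKHD1 (1.13), LTBP2 (1.08), TAFA1 (1.02), VEGFC (0.90), RBPMS (-5.45), FZD5 (-3.63), ARHGEF26 (-3.48), PLSCR4 (-3.45) and GLIS3 (-3.21). These calls depended on the fit: 60 genes passed with the retina term, 9 without it and 8 after thinning. VWC2, a secreted BMP regulator, had 142 and 84.7 against 79.9 and 53.3 CPM in EBF nuclei and 41.4 and 25.4 against 50.3 and 47.1 CPM in glycinergic nuclei. With 2 retinas per group at most, no single retina could be tested for standing apart.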

How the results depend on the processing

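No paired analysis was possible because the replicate numbers follow accession order and the groups hold different animals. The 120 week 4 calls became 58 with at least 5 EBF UMIs, 69 with SLC6A9 detected (added after seeing the data), 56 after thinning and 58 without the low-count filter, and ranged from 2 to 158 with 1 animal left out. The 32 interferon-stimulated calls became 19, 21 and 15 under the first 3 of these and ranged from 1 to 36. The 11 differences between weeks ranged from 12 to 72. The 13 differences from GABAergic nuclei became 1 without the retina term and 3 after thinning, and ranged from 0 to 13. The 60 from glycinergic nuclei became 9 and 8 and ranged from 21 to 221. The 513 week 2 genes became 1009 in left eyes, 872 in right eyes and 122 at 4-fold. The share difference of -0.105 turned to 0.0921 with at least 5 EBF UMIs and to 3.24 as a share of the 3 amacrine gates, ranged from -0.309 to 0.0992 with 1 animal left out, and was -0.454 with at least 2 EBF UMIs and -0.243 without immune UMIs (added after seeing the data). The mean share of EGFP nuclei in AAV retinas, 7.09%, became 0.843% at 2 or more UMIs and 1.49% after thinning. The cause was not tested. Of 737 refits of named genes, 565 kept their call, 172 kept the direction without passing and 0 reversed. Refits in which a gene was too low to be tested are not among the 737. All but EGFP were named from calls in these same data, so the kept direction is not independent evidence. Depth limits genes under a few CPM, many of which could not be tested.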

Other observations

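Some genes differed between single animals rather than arms, and are given as values picked after they were seen. NAALAD2, a glutamate carboxypeptidase gene, had 0.73 and 0.574 CPM in the eyes of AAV animal 7221, 45.1 and 47.9 CPM in those of vehicle animal 7222, 42.7 and 76.9 CPM in AAV animals 7248 and 7249, 3.29 CPM in vehicle animal 7250 and 84.1 CPM in vehicle animal 7251. IL1R1, the interleukin-1 receptor, was also low in animals 7221 (7.3 and 7.46 CPM) and 7250 (2.82 CPM), with 37.5 and 42.5 CPM in 7222, 61.5 in 7248, 80 in 7249 and 87.9 CPM in 7251. GRIK1, a kainate receptor subunit, differed between the eyes of animal 7221, with 261 and 51.6 CPM, and was between 8.31 and 108 CPM in the other 6 retinas.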
